A study of Homo sapiens with 9 samples.

Results

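The genes described here act in protein folding, quality control and stress signalling of the endoplasmic reticulum (ER), here measured in U87, an established line of human glioma cells. They are the 35 genes of a fixed list of ER chaperones, ER-associated degradation factors and stress sensors, out of 19775 named genes on the array. Each gene is represented by 1 probe set, the one with the highest mean log2(signal + 1) over the 9 arrays among those assigned to that gene alone. All 35 had a probe set, and all 35 passed the filter on dim signal that left 12587 genes for testing. Cells had received 50 nM of a microRNA duplex by lipid transfection and were harvested 72 h later. There were 3 groups of 3 Affymetrix arrays: miR-376a*A, the unedited sequence, miR-376a*G, the form in which a guanosine stands in for an adenosine that RNA editing deaminates, and miR-control, a control duplex. Every group, control included, therefore carried a transfected duplex, and all cells were of 1 line. The labels call the replicates biological but do not say whether they came from separate cultures, so p-values measure the spread between these arrays.

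Proteins that enter the ER are folded by chaperones, disulfide isomerases and J proteins, and their glycans are read by lectins that sort folded from misfolded molecules. Misfolded glycoproteins are passed through a membrane ubiquitin ligase complex to the cytosol, where the ATPase VCP extracts them for the proteasome, a route called ER-associated degradation. When misfolded protein builds up, the membrane sensors ATF6, IRE1 (encoded by ERN1) and PERK (encoded by EIF2AK3) start the unfolded protein response, which raises chaperone and degradation genes.

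RefSeq lists a pair of 5p microRNAs from the miR-376a loci, miR-376a* being an older name for the 5p strand. They are shown because the transfected duplexes are forms of this strand. The labels do not say which locus the duplexes follow, and the altered base is not marked here. Capitals mark the seed, bases 2 to 8, on build GRCh38.p14.
hsa-miR-376a-5p (chr14:101040788-101040809, plus strand): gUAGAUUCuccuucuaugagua
hsa-miR-376a-2-5p (chr14:101040080-101040100, plus strand): gGUAGAUUuuccuucuauggu
The seeds share a stretch of bases but hold it at positions that differ by 1 base.

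Promoter sequences, from 250 bases before to 50 bases after the annotated start (RefSeq, GRCh38.p14), were found for 31 of the 35 genes. They are shown because 10 of these genes carry a spaced ER stress response element. The genes were not picked by sequence, but the element is named for the stress response that the list covers. The shares below are thus a description and not an independent result. The first form, ERSE, is CCAAT, any 9 bases, then CCACG. It was sought on both strands and occurred in promoters of 7 genes, against 0.0916% of all 27305 genes with a promoter. ATF6 binds this element together with the factor NF-Y. Each line adds 5 bases on either side of the element, and the distance given is that of the element. Capitals mark the paired blocks, which read CGTGG and ATTGG where the element lies on the other strand.
HSPA5 (chr9:125241386-125241414, minus strand, 66 bases before the start): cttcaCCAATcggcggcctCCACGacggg
HSP90B1 (chr12:103930211-103930239, plus strand, 194 bases before the start): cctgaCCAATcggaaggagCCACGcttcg
HSP90B1 (chr12:103930316-103930344, plus strand, 89 bases before the start): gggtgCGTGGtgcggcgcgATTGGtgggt
CALR (chr19:12938379-12938407, plus strand, 225 bases before the start): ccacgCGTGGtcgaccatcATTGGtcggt
CANX (chr5:179698773-179698801, plus strand, 151 bases before the start): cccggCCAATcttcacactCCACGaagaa
PDIA6 (chr2:10812848-10812876, minus strand, 86 bases before the start): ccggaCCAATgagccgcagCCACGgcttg
CRELD2 (chr22:49918549-49918577, plus strand, 80 bases before the start): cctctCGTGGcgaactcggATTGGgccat
XBP1 (chr22:28800598-28800626, minus strand, 52 bases before the start): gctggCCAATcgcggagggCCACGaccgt
HSP90B1 carried 2 copies, and the other 6 genes carried 1 each in the windows searched.

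The second form, ERSE-II, is ATTGG, any 1 base, then CCACG, on either strand, with no overlap with the first form in these genes. It occurred in 3 genes, against 0.0696% of all genes with a promoter. HYOU1 carried 2 copies.
HERPUD1 (chr16:56932020-56932040, plus strand, 117 bases before the start): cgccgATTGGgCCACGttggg
HYOU1 (chr11:119057375-119057395, minus strand, 185 bases before the start): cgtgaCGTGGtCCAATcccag
HYOU1 (chr11:119057269-119057289, minus strand, 79 bases before the start): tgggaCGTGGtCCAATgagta
SDF2L1 (chr22:21642109-21642129, plus strand, 188 bases before the start): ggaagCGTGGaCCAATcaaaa
The whole window of HERPUD1 (chr16:56931892-56932191, plus strand) is printed because this gene gave the smallest adjusted p of the 35 between miR-376a*G and control.
HERPUD1 promoter: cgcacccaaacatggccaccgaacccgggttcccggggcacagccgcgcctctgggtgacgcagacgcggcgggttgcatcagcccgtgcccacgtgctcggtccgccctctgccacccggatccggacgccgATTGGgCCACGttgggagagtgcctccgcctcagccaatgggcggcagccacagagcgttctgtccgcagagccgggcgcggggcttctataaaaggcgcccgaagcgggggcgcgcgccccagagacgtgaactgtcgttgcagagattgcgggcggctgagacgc
The shorter motif TGACGTGG, sought on both strands, was in the promoters of DNAJC10, HYOU1 and VCP, against 0.927% of all genes with a promoter. None of these matches was measured as a bound site.

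Signals, given in the deposited linear units, ranged around array medians of 18.0 to 24.6. Of 10 markers of this line and of glia, 7 passed the filter. VIM, CD44, FN1, SPARC and TNC were bright, with VIM at 2107 to 2975 over the 9 arrays. NES was much dimmer, at 32.4 to 61.6, and SOX2 also passed, while the glial markers GFAP, S100B and OLIG2 did not. FN1, the matrix protein fibronectin, did not hold steady, with 2739, 4065 and 3830.0 with miR-376a*A, 999.7, 1173 and 1150.2 with miR-376a*G and 3233, 2397 and 2712 with control. It was lower with miR-376a*G than with control (-1.32, limma adjusted p = 3.7e-04) and higher with miR-376a*A than with miR-376a*G (1.66, adjusted p = 1.0e-04). Of 9 leukocyte, endothelial and epithelial markers with a probe set, PECAM1 and KRT8 alone passed the filter, and the summed signal of the 9 was 118 to 218 on the miR-376a*A arrays, 183 to 221 on the miR-376a*G arrays and 103 to 230.5 on the control arrays. Replicate 1 of miR-376a*A and replicate 1 of miR-control, as labelled, stood apart from their groups. Across the 35 genes, which are not independent, Pearson's r between miR-376a*A replicate 1 and the rest of its own group was 0.940 and 0.952, but 0.983 and 0.985 against the remaining control arrays. For control replicate 1 the values were 0.930 and 0.920 within its own group, but 0.982 and 0.986 against the remaining miR-376a*A arrays. The same crossing held over all tested genes, at r = 0.982 to 0.990 against 0.925 to 0.935. Whether the 2 labels were exchanged is not known from the sources used here, and an exchange would change every mean of miR-376a*A and control. Groups are kept as labelled below, and for both comparisons with miR-376a*G each gene whose call or direction changed without these 2 arrays is given with that value too. The log2 ratio of 3′ to 5′ GAPDH control probe sets was -0.174 to -0.103 on the miR-376a*A arrays, -0.193 to -0.142 on the miR-376a*G arrays and -0.120 to -0.0755 on the control arrays. For ACTB it was -0.213 to -0.152 on the miR-376a*A arrays, -0.181 to -0.168 on the miR-376a*G arrays and -0.207 to -0.129 on the control arrays, all overlapping. The mean log2 signal of the hybridisation controls was 7.82 to 7.93 on the miR-376a*A arrays, 7.13 to 7.29 on the miR-376a*G arrays and 7.51 to 7.70 on the control arrays. The part of the GAPDH ratio in the results was not tested, and scaling to the hybridisation controls is given beside the counts it changes.

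**Figure D1:**
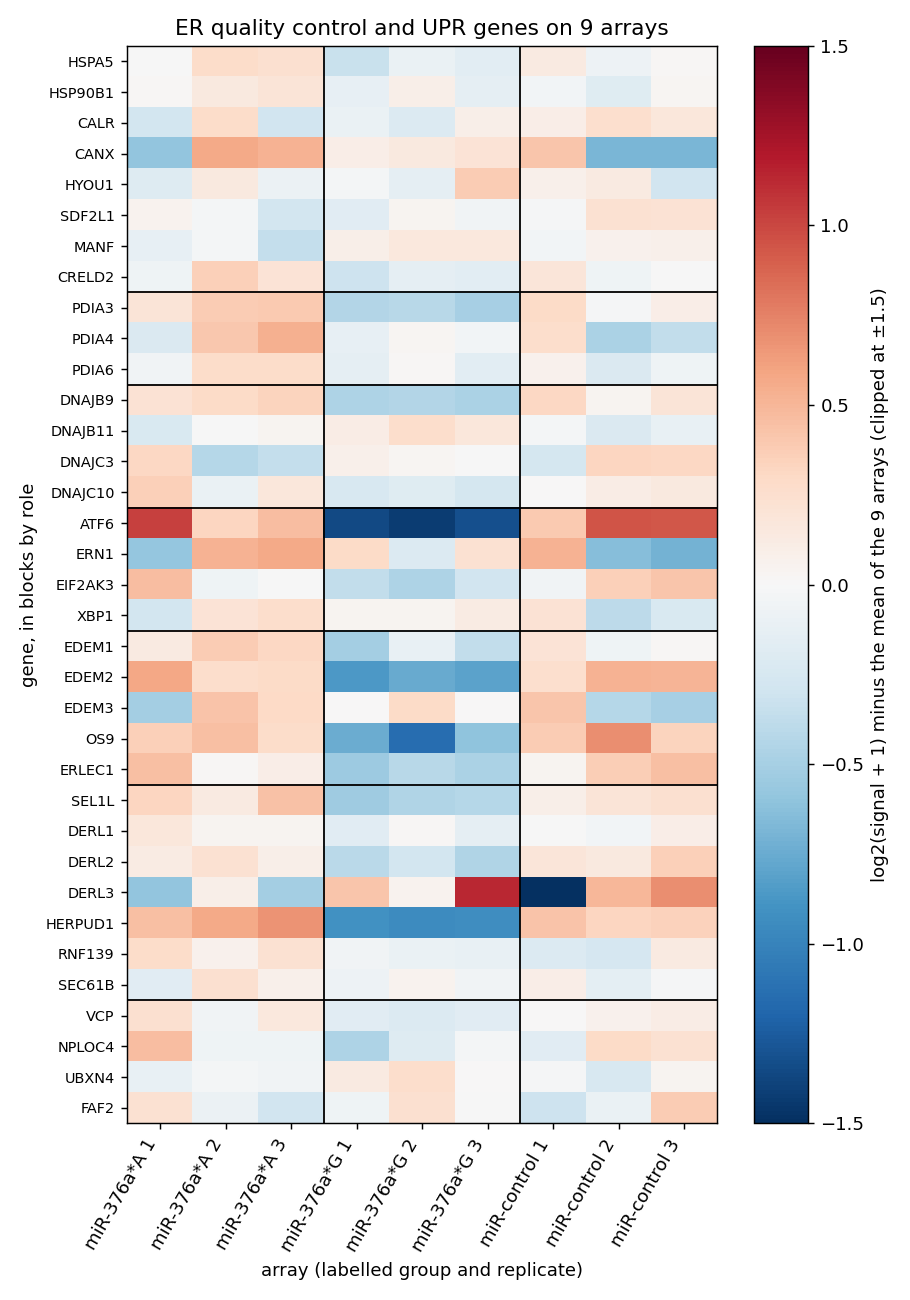
Signal of the 35 genes on each of the 9 arrays, as log2(signal + 1) minus the gene's mean over the arrays, in blocks by role. The miR-376a*G columns are blue for ATF6, EDEM2, OS9 and HERPUD1, and the columns of miR-376a*A replicate 1 and miR-control replicate 1 carry the colours of each other's group for CANX, ERN1, EDEM3 and DNAJC3.

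Setting miR-376a*G beside control asks what the edited form changes. ATF6 was the gene with the greatest decrease among the 35, and the genes of glycan recognition and of the membrane ligase complex made up 6 of the 10 that fell, while none of the 8 chaperones was called. In all, 11 of 35 genes were called, 10 lower and 1 higher. A gene is called when the Benjamini-Hochberg adjusted p of limma's test over all tested genes is under 0.05. Of all 12587 tested genes 33.4% were called, 15.4% lower and 18% higher, so the total share of 31.4% among the 35 was close to the background. The median log2 difference of the 35 was -0.20, beside 0.12 over all tested genes. Signals come from whole cultures, so less transcript per cell and fewer cells that carry it cannot be told apart. The direction of the list depends on scaling. With arrays scaled to the hybridisation controls, which moves the median of all genes to 0.51, 9 of the 35 were higher and 4 lower, and with arrays centred on their medians (all-gene median -0.12) 0 were higher and 15 lower. Over all tested genes the counts were 5592 higher and 946 lower with hybridisation-control scaling, and 1068 and 2595 with centring. Both scalings add the same amount to every gene of an array. The gap between the median of the 35 and that of all genes (-0.32 as deposited) therefore could not change, and says nothing on robustness to scaling. With the 2 deviating arrays removed, of which control replicate 1 enters this difference, 22 of 35 were called, 6 higher and 16 lower, against 56.1% of all genes (31.2% higher and 25% lower).

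**Figure D2:**
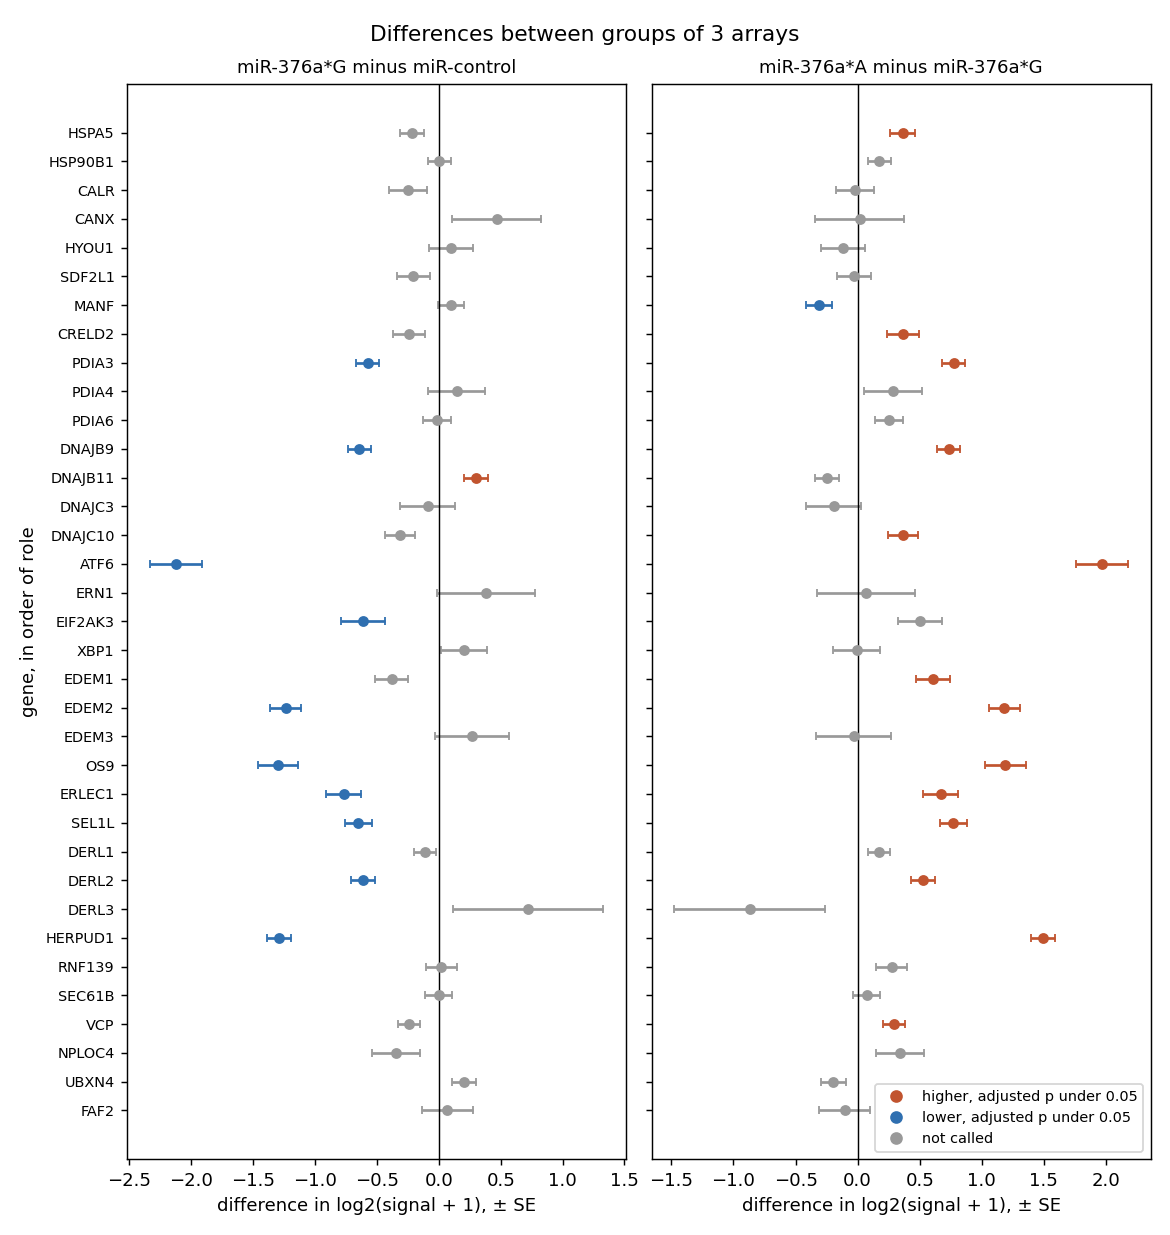
Differences in log2(signal + 1) with their standard errors for the 35 genes, miR-376a*G minus miR-control on the left and miR-376a*A minus miR-376a*G on the right, 3 arrays per group. Coloured points passed an adjusted p of 0.05; on the left 10 genes lie lower and DNAJB11 higher, and on the right 14 lie higher and MANF lower.

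Among the stress sensors, ATF6, the membrane-bound transcription factor released by proteolysis in the Golgi, gave 619, 379 and 419 on the miR-376a*A arrays, 119, 113 and 121 on the miR-376a*G arrays and 399, 587 and 581 on the control arrays. Every miR-376a*G array lay below every other array. The mean signal was 117 ± 4.28 with miR-376a*G and 522 ± 107 with control (SD, n = 3 each), a log2 difference of -2.12 (SE 0.21, limma adjusted p = 1.2e-04), or 4.35-fold lower. Of its other 3 probe sets, one gave -2.30 (adjusted p = 3.2e-04) and one -1.23 (adjusted p = 0.0123). On the last, control replicate 1 lay below the miR-376a*G arrays, and the difference was -0.80 (adjusted p = 0.184). These values come from a fit of all single-gene probe sets one by one, in which 32.3% were called.

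EIF2AK3, the sensor kinase that slows translation, gave 325, 226 and 236 on the miR-376a*A arrays, 183, 171 and 194 on the miR-376a*G arrays and 229, 304 and 315 on the control arrays. The miR-376a*G arrays were again the lowest of the 9. EIF2AK3 fell, at -0.61 (SE 0.18, limma adjusted p = 0.0262), but its call was lost on removing any single miR-376a*G array, or either control array other than replicate 1 (adjusted p up to 0.0902). It was -0.76 (adjusted p = 4.1e-05) without both arrays that stood apart.

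ERN1, the sensor with an RNase that splices XBP1 messenger RNA, gave 65.4, 142 and 147 on the miR-376a*A arrays, 121, 84.9 and 115 on the miR-376a*G arrays and 141, 62.7 and 60.0003 on the control arrays. The groups overlapped, with miR-376a*A replicate 1 low in its group and control replicate 1 high in its own. Its difference of 0.38 had a 95% interval of -0.52 to 1.27 and an adjusted p of 0.491, and it was 0.78 (adjusted p = 0.00139) without both arrays. A dimmer ERN1 probe set gave 36.4, 41.1 and 37.8 with miR-376a*A, 84.4, 74.1 and 90.7 with miR-376a*G and 46.7, 43.7 and 39.7 with control. On that one the miR-376a*G arrays were highest and did not overlap the others (0.92, adjusted p = 0.00144). Another ERN1 probe set was not called (0.45, adjusted p = 0.133).

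XBP1, the transcription factor produced after that splicing, gave 393, 548 and 573 on the miR-376a*A arrays, 493, 490.4 and 521 on the miR-376a*G arrays and 556, 362 and 408 on the control arrays. The groups overlapped, at 0.20 (95% interval -0.22 to 0.63, adjusted p = 0.430), but with the 2 deviating arrays removed XBP1 was higher with miR-376a*G, at 0.38 (adjusted p = 0.00244). The array does not tell spliced from unspliced XBP1. A dim second probe set of XBP1, at 10.1 to 33.3, was higher with miR-376a*G (0.85, adjusted p = 0.0408).

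**Figure D3:**
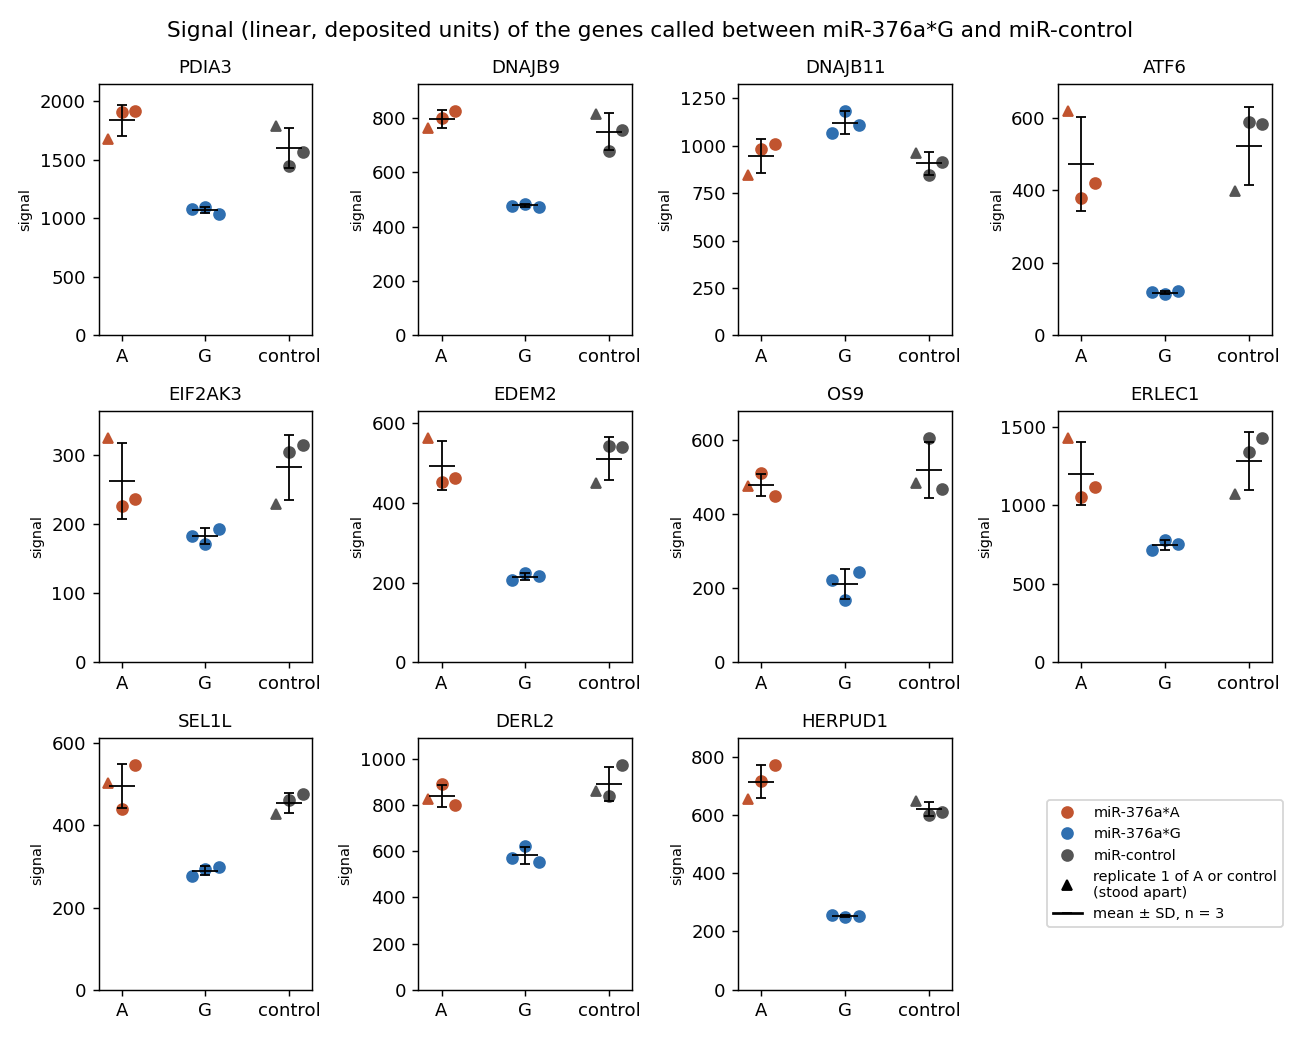
Linear signal of the 11 genes called between miR-376a*G and control, with each array as a point and the mean ± SD of 3 arrays, in the order miR-376a*A, miR-376a*G, control. For every gene but DNAJB11 the 3 miR-376a*G points lie below the other 6, and for DNAJB11 they lie above them; triangles mark the 2 arrays that stood apart.

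Of 5 genes of glycan recognition, 3 fell with miR-376a*G, where 15.4% of all tested genes were called lower. OS9, a lectin that hands trimmed glycoproteins to the ligase complex, gave 477, 510.2 and 449.6 on the miR-376a*A arrays, 222, 168 and 245 on the miR-376a*G arrays and 484, 606 and 468 on the control arrays. The groups miR-376a*G and control did not overlap (-1.30, SE 0.16, limma adjusted p = 4.3e-04), and the gene's second probe set gave -1.17 (adjusted p = 0.00121). ERLEC1, a second lectin of the same step, gave 1430.0, 1055 and 1119 on the miR-376a*A arrays, 715, 778 and 751 on the miR-376a*G arrays and 1074, 1343 and 1429 on the control arrays. Its level fell by 0.77 on the log2 scale (SE 0.14, limma adjusted p = 0.00309), and of its other 2 probe sets one was called, at -1.42 (adjusted p = 3.0e-04).

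The EDEM genes, relatives of glycan-trimming mannosidases that mark glycoproteins for disposal, did not share one pattern. EDEM2 gave 564, 454 and 462 on the miR-376a*A arrays, 207, 224 and 217 on the miR-376a*G arrays and 449.6, 544 and 540.0 on the control arrays. EDEM2 was 2.36-fold lower with miR-376a*G (log2 difference -1.24, SE 0.13, limma adjusted p = 1.4e-04), without overlap. EDEM1 gave 477, 570.3 and 543 on the miR-376a*A arrays, 307, 403 and 339 on the miR-376a*G arrays and 503, 416 and 443 on the control arrays, again without overlap between miR-376a*G and control, but at -0.38 it missed the threshold (adjusted p = 0.0568; 0.0348 without both arrays that stood apart). EDEM3 signals were 184, 225 and 185 with miR-376a*G and 246, 137 and 130.3 with control, overlapping, with a difference of 0.27 (95% interval -0.41 to 0.95). Control replicate 1 was the high one, and without both arrays EDEM3 was called higher, at 0.56 (adjusted p = 0.00157).

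Of the 7 genes of the membrane complex and its partners, HERPUD1, SEL1L and DERL2 fell, beside 15.4% of all tested genes called lower. HERPUD1, a stress-induced scaffold of the ligase complex, gave 657, 716 and 772 on the miR-376a*A arrays, 255, 250.4 and 253 on the miR-376a*G arrays and 648, 602 and 612 on the control arrays. The miR-376a*G arrays were nearly equal, at 253 ± 2.53, against 620.4 ± 24.3 with control (SD, n = 3 each). HERPUD1 was 2.45-fold lower with miR-376a*G (log2 difference -1.29, SE 0.09, limma adjusted p = 3.0e-05). A second HERPUD1 probe set was dim, at 4.59 to 22.3, and not called (-0.92, adjusted p = 0.245).

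SEL1L, the adaptor that holds the ligase HRD1 and its lectins together, gave 503, 440.3 and 547 on the miR-376a*A arrays, 277, 293 and 299 on the miR-376a*G arrays and 427, 461 and 476 on the control arrays. Its groups miR-376a*G and control did not overlap (-0.65, SE 0.11, limma adjusted p = 0.00215). Its other 3 probe sets gave -0.82, -0.37 and -0.13, and the first of these alone was called (adjusted p = 0.00682). DERL2, a derlin of the exit channel, gave 826, 892 and 802 on the miR-376a*A arrays, 572, 625 and 553 on the miR-376a*G arrays and 862, 839 and 975 on the control arrays. It fell by 0.61 on the log2 scale (SE 0.10, limma adjusted p = 0.00139). Its second probe set gave 29.1, 36.8 and 39.6 with miR-376a*G and 131, 268 and 254 with control, a difference of -2.54 (adjusted p = 4.5e-04), so the probe sets shared a direction but not a size.

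DERL1, another derlin, was not called on its brightest probe set (-0.11, adjusted p = 0.362), where miR-376a*G and control overlapped. Dimmer DERL1 probe sets at -0.25 (adjusted p = 0.0478) and -0.33 (adjusted p = 0.0337) were called lower, and a further one at 0.45 (adjusted p = 0.229) was not called. DERL3, a derlin of secretory cells, was close to the array medians, at 6.68 to 56.1 over the 9 arrays, and its difference of 0.72 had a 95% interval of -0.65 to 2.10. Control replicate 1 was the lowest DERL3 value, and without both arrays the direction turned, to -0.067 (adjusted p = 0.864). RNF139, a membrane ubiquitin ligase, and SEC61B, a subunit of the translocation channel, differed by 0.02 (95% interval -0.26 to 0.30) and 0.00 (95% interval -0.25 to 0.25), and both changed sign without the 2 arrays, at -0.029 and 0.062, uncalled.

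VCP, the ATPase that pulls substrates from the membrane, gave 1320.2, 1073 and 1246 on the miR-376a*A arrays, 991, 969.8 and 995 on the miR-376a*G arrays and 1124, 1166 and 1206 on the control arrays. All 3 miR-376a*G arrays were the lowest, but the difference of -0.24 missed the threshold (SE 0.09, adjusted p = 0.0656), and it passed without both arrays (-0.27, adjusted p = 0.0161). A second VCP probe set was called lower, with 436, 438 and 434 with miR-376a*G and 675, 666 and 652 with control (-0.61, adjusted p = 0.00118). The VCP cofactor NPLOC4 and the VCP-recruiting membrane proteins UBXN4 and FAF2 differed by -0.35, 0.20 and 0.07, with adjusted p-values of 0.195, 0.144 and 0.815, and their groups overlapped. Without both arrays NPLOC4 was called lower, at -0.49 (adjusted p = 0.00363), and FAF2 changed sign, to -0.081, uncalled.

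HSPA5 encodes BiP, the Hsp70 chaperone of the ER lumen and a usual readout of the unfolded protein response. It gave 2038, 2475 and 2419 on the miR-376a*A arrays, 1628, 1913 and 1840.4 on the miR-376a*G arrays and 2247, 1936 and 2067 on the control arrays. The miR-376a*G arrays lay below the control arrays without overlap, but by little (-0.22, 95% interval -0.44 to 0.01, adjusted p = 0.128). A dimmer probe set of HSPA5 disagreed in size, with 93.2, 93.8 and 101 with miR-376a*G and 208, 209.6 and 168 with control (-1.01, adjusted p = 6.0e-04).

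The lectin chaperones calreticulin (CALR) and calnexin (CANX), which hold new glycoproteins while they fold, were not called. CANX gave 1237, 2771 and 2683 on the miR-376a*A arrays, 2001, 2062 and 2156 on the miR-376a*G arrays and 2493, 1162 and 1158 on the control arrays. Here miR-376a*A replicate 1 sat with control replicates 2 and 3, and control replicate 1 with miR-376a*A replicates 2 and 3. The CANX difference was 0.47 (95% interval -0.34 to 1.28, adjusted p = 0.343) as labelled and 0.84 (adjusted p = 3.6e-06) without both arrays. CALR gave 856, 795 and 974 with miR-376a*G and 981, 1089.6 and 1033 with control, close but without overlap, and differed by -0.25 (95% interval -0.59 to 0.10). A second bright CALR probe set lay the other way, also without overlap. It gave 953, 941 and 1083 with miR-376a*G and 915, 895 and 858 with control (0.16, adjusted p = 0.324). A dimmer one gave -0.14 (adjusted p = 0.612).

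The Hsp90 of the ER, HSP90B1, differed by 0.01 (95% interval -0.20 to 0.21), while its dimmer probe set was called higher (0.65, adjusted p = 0.00980). Both HSP90B1 probe sets, like those chosen for CALR, PDIA6, EDEM3, OS9 and DERL3, carry the suffix that the array maker gives to probe sets that may hybridise to other transcripts. HYOU1, a nucleotide exchange factor for BiP, differed by 0.10, SDF2L1, a partner of J proteins, by -0.20, and CRELD2, an ER-stress protein, by -0.24, with adjusted p-values of 0.699, 0.278 and 0.184. SDF2L1 was called lower without both arrays, at -0.28 (adjusted p = 0.0455). MANF, a BiP-binding protein secreted under ER stress, gave 659, 691 and 693 with miR-376a*G and 604, 649 and 653 with control, not overlapping but close (0.10, adjusted p = 0.489).

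Of 3 disulfide isomerases 1 was called, and of 4 J proteins 2, beside 33.4% of all tested genes. PDIA3 (ERp57), the isomerase that works with the lectin chaperones, gave 1676, 1906 and 1918 on the miR-376a*A arrays, 1077, 1094 and 1038 on the miR-376a*G arrays and 1783, 1448 and 1566 on the control arrays. It fell by 0.57 on the log2 scale (SE 0.09, limma adjusted p = 0.00165), although its dimmer probe sets, at -0.27 and 0.14, were not called (adjusted p = 0.245 and 0.661). PDIA4 and PDIA6, further isomerases, differed by 0.14 (95% interval -0.38 to 0.67) and -0.01 (-0.27 to 0.24). PDIA4 had 629, 699.6 and 664 with miR-376a*G and 825, 495 and 530.1 with control, replicate 1 being the brightest control array, and without both arrays it was called higher, at 0.37 (adjusted p = 0.00278). PDIA6 changed sign, to 0.054, uncalled.

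DNAJB9 (ERdj4), a J protein that binds BiP and the sensor IRE1, gave 763, 802 and 828 on the miR-376a*A arrays, 477, 485 and 474 on the miR-376a*G arrays and 815, 679 and 755 on the control arrays. The miR-376a*G arrays differed from each other by little and lay below all others (-0.64, SE 0.09, limma adjusted p = 9.1e-04), and both other probe sets were called lower (-0.69 and -0.91). DNAJB11 (ERdj3), a J protein that brings unfolded clients to BiP, gave 844, 983 and 1010.4 on the miR-376a*A arrays, 1066, 1186 and 1112 on the miR-376a*G arrays and 965, 845 and 915 on the control arrays. It rose with miR-376a*G by 0.30 (SE 0.10, limma adjusted p = 0.0392), a call lost on removing any single miR-376a*G array or control replicate 2 or 3 (adjusted p up to 0.130) and at 0.07 with arrays centred on their medians.

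DNAJC10 (ERdj5), a J protein with reductase activity, gave 871, 637 and 764 on the miR-376a*A arrays, 579, 601 and 568 on the miR-376a*G arrays and 684, 735 and 756 on the control arrays. It missed the threshold against control (-0.31, adjusted p = 0.0714), which it passed without both arrays (-0.35, adjusted p = 0.00588). The dimmer DNAJC10 probe sets were not called as labelled, at 0.23, 0.02 and -0.15. Without both arrays they gave 0.16 and -0.035 (adjusted p = 0.316 and 0.750) and -0.73 (adjusted p = 2.1e-04, called lower). DNAJC3 (P58IPK), a co-chaperone that also inhibits PERK-type kinases, gave 455, 440.2 and 427 with miR-376a*G and 357, 538 and 535 with control, overlapping through control replicate 1 (-0.09, adjusted p = 0.786). Without both arrays DNAJC3 was called lower, at -0.28 (adjusted p = 0.00845). Its dimmer probe sets did not share that direction without both arrays. They gave 0.37 (adjusted p = 0.0132, called higher), 0.54 (adjusted p = 0.0533) and 0.003 (adjusted p = 0.987).

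Ranges of the miR-376a*G and control arrays did not overlap for 18 of the 35 genes, 16 lower and 2 higher, beside 53.4% of all tested genes. Among the 11 called genes, 8 had further probe sets that passed the filter. Of those 15 probe sets 14 shared the direction, 8 of them called, and 0 were called the opposite way. ATF6, EDEM2, OS9 and HERPUD1 were called lower in all 19 alternative settings tried. PDIA3, DNAJB9, ERLEC1, SEL1L, DERL2 and EIF2AK3 kept their direction but lost the call with arrays scaled to the hybridisation controls (adjusted p up to 0.374), and with the mean of all probe sets of a gene PDIA3 and EIF2AK3 lost it (adjusted p = 0.255 and 0.655). Median differences of the 10 genes with either spaced element and of the 21 other genes with a promoter were -0.11 and -0.31, beside 0.12 over all tested genes. Of the 10, HERPUD1 alone was called, lower. Of the 21, 8 were lower and 1 higher. Over all tested genes 33.4% were called, 15.4% lower and 18% higher, and the difference between the 10 and the 21 was not tested.

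The comparison of miR-376a*A with miR-376a*G sets the unedited form beside the edited form, and shares the miR-376a*G arrays with the comparison above. In it, 14 of 35 genes were higher with miR-376a*A and 1 was lower, or 42.9%, against 38.2% of all tested genes (16.4% higher and 21.8% lower). The median of the 35 was 0.28, beside -0.14 over all genes. With arrays scaled to the hybridisation controls (all-gene median -0.81) the split turned to 4 higher and 17 lower, beside 677 and 8205 of all tested genes. With centred arrays (all-gene median 0.11) it was 19 and 0, beside 2965 and 1262. The median of the 35 lay 0.42 above that of all genes, a gap that neither scaling can change. HERPUD1 stood at 1.49 (SE 0.09, limma adjusted p = 1.4e-05), with a mean signal of 715 ± 57.9 with miR-376a*A and 253 ± 2.53 with miR-376a*G (SD, n = 3 each), a call lost with the mean of its probe sets (adjusted p = 0.05995). ATF6 stood at 1.97 (SE 0.21, adjusted p = 1.7e-04), OS9 at 1.19 (adjusted p = 6.1e-04) and EDEM2 at 1.18 (adjusted p = 1.7e-04). PDIA3, SEL1L, DNAJB9, ERLEC1, EDEM1 and DERL2 were higher by 0.77, 0.77, 0.74, 0.67, 0.61 and 0.53, with adjusted p-values between 3.1e-04 and 0.00725. With hybridisation-control scaling PDIA3, SEL1L, DNAJB9 and ERLEC1 lost the call, and EDEM1 and DERL2 turned negative.

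Smaller differences of this comparison included chaperones. HSPA5 was higher with miR-376a*A by 0.36 (SE 0.10, limma adjusted p = 0.0192), a call lost on removing miR-376a*A replicate 2, miR-376a*A replicate 3 or miR-376a*G replicate 1 (adjusted p up to 0.0778). CRELD2, with 523, 703 and 633 on miR-376a*A arrays and 441, 498 and 492 on miR-376a*G arrays, was higher by 0.37 (adjusted p = 0.0497), and its call was lost without any one array other than miR-376a*A replicate 1 and control replicate 1 (adjusted p up to 0.1602). MANF had 568, 607 and 481 with miR-376a*A and 659, 691 and 693 with miR-376a*G, the 1 gene called lower (-0.31, adjusted p = 0.0441), lost on removing miR-376a*A replicate 3, any miR-376a*G array or control replicate 2 or 3 (adjusted p up to 0.137) and at -0.060 with centred arrays. DNAJC10 at 0.37 and VCP at 0.29 were called higher (adjusted p = 0.0373 and 0.0281). Both lost the call on removing miR-376a*A replicate 1 or 3 or any miR-376a*G array, and DNAJC10 also without control replicate 2 or 3 (adjusted p up to 0.110 and 0.0873). With arrays scaled to the hybridisation controls HSPA5, CRELD2, DNAJC10 and VCP turned, to -0.31, -0.30, -0.30 and -0.37, of which HSPA5 and VCP were then called lower. DNAJC10 also turned with the mean of all its probe sets, to -0.100. EIF2AK3 missed the threshold (0.50, adjusted p = 0.0509), and CALR, XBP1 and ERN1 differed by -0.02, -0.01 and 0.07, with 95% intervals of -0.37 to 0.33, -0.43 to 0.41 and -0.83 to 0.96. Without both arrays that stood apart ERN1 was called higher with miR-376a*A, at 0.45 (adjusted p = 0.0266). A dimmer ERN1 probe set was called the opposite way, at -1.05 (adjusted p = 1.2e-04) without both arrays and -1.09 (adjusted p = 5.2e-04) as labelled. Another ERN1 probe set was not called, at -0.37 and -0.54. Without both arrays CALR and XBP1 changed sign, to 0.069 and 0.16, uncalled, as did EDEM3, to 0.26. Also called then were CANX at 0.40, PDIA4 at 0.51, PDIA6 at 0.36 and EIF2AK3 at 0.34, all higher, and DNAJC3 at -0.43, lower, against 0.02, 0.29, 0.25, 0.50 and -0.19 as labelled. The other PDIA6 probe sets were split without both arrays. Those at 0.45 and 0.35 were called higher, and one at -0.37 was called lower (adjusted p = 0.00359). The ranges did not overlap for 20 of 35 genes, 17 higher and 3 lower, beside 53.5% of all tested genes. Once the 2 deviating arrays were removed, 21 of 35 were called, 19 higher and 2 lower, against 59.6% of all genes (25.7% higher and 34% lower).

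Setting miR-376a*A beside control asks what the unedited form changes. With the arrays as labelled, 0 of 35 genes were called by limma, as were 0% of all 12587 tested genes, and 1 of the 35 had an unadjusted p under 0.05, beside 463 of all genes. That gene was RNF139, at 0.30 (470.1, 405 and 453 with miR-376a*A and 336, 326 and 426 with control, overlapping, adjusted p = 0.886). The 35 differences lay between -0.28 for DNAJC3 and 0.48 for CANX, with a median of 0.06 beside -0.02 over all genes. HERPUD1 was the 1 gene of 35 whose arrays did not overlap, beside 6.15% of all genes, with 657, 716 and 772 with miR-376a*A and 648, 602 and 612 with control (0.20, SE 0.09, adjusted p = 0.886). ATF6 differed by -0.16 with a 95% interval of -0.63 to 0.32, and HSPA5 by 0.15 with -0.08 to 0.37.

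This result depended on the 2 arrays that stood apart. Without both, 17 of 35 genes were called, 11 higher and 6 lower, against 41.9% of all tested genes (19% higher and 22.9% lower). CANX was then at 1.23 (adjusted p = 1.1e-06), ERN1 at 1.22 (2.0e-04), PDIA4 at 0.89 (2.6e-05), EDEM3 at 0.82 (3.6e-04) and XBP1 at 0.54 (7.0e-04). The dimmer ERN1 probe sets did not share that rise, at -0.077 and 0.022 without both arrays (adjusted p = 0.735 and 0.945). Genes called lower were DNAJC3 at -0.71, ATF6 at -0.55, EIF2AK3 at -0.42, SDF2L1 at -0.38, ERLEC1 at -0.35 and EDEM2 at -0.24. The remaining genes called higher were PDIA6, EDEM1, PDIA3, CRELD2, HERPUD1 and HSPA5, at 0.29 to 0.42. Other PDIA6 probe sets gave 0.39 and 0.45, called higher, and -0.43, called lower (adjusted p = 0.00442). With 2 arrays per group and arrays chosen for standing apart, these p-values are not independent of that choice. Leaving out either array alone gave 0 calls.

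**Figure D4:**
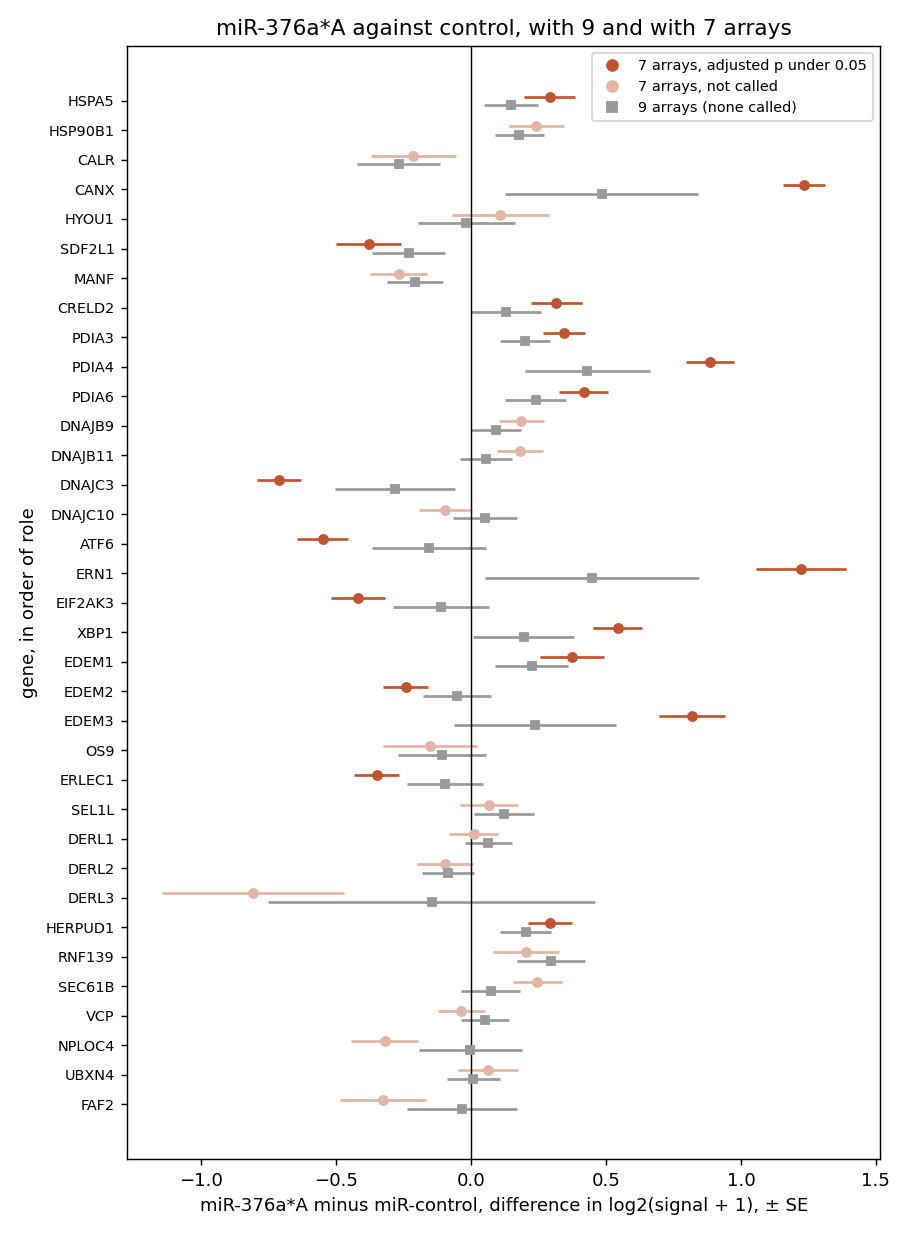
Differences in log2(signal + 1) with standard errors between miR-376a*A and control for the 35 genes, without (circles, 7 arrays) and with (squares, 9 arrays) the 2 arrays that stood apart. With 9 arrays none was called; with 7, CANX and ERN1 lie farthest to the right and DNAJC3 is the lowest of the called genes.

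Further genes of the same processes, from 4 lists, were measured on the same arrays. Between miR-376a*G and control, 14 of 39 tested genes of an additional degradation list were called, 7 higher and 7 lower, or 35.9% beside 33.4% of all tested genes, with a median of -0.04. The shuttle factors UBQLN1 and UBQLN2, which carry ubiquitinated proteins to the proteasome, fell, at -1.92 (adjusted p = 1.5e-04) and -1.80 (0.00141). UBQLN1 had 237, 224 and 251 with miR-376a*G and 1028, 857 and 824 with control, without overlap. HM13, the signal peptide peptidase, and TOR1A, an ATPase of the ER lumen, fell, at -0.94 and -0.91. UBXN8, which recruits VCP, rose by 1.02 (adjusted p = 4.9e-04), the conjugating enzyme UBE2J2 by 0.80 (2.9e-04), AUP1 by 0.60 and ERLIN1, an ER membrane scaffold, by 0.58.

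Folding and export factors outside the 35 gave 9 of 39 called, or 23.1% beside 33.4% of all tested genes. Of the 39, 1 was called higher and 8 lower, with a median of -0.12. The collagen chaperone SERPINH1 had 170.0, 189 and 186 with miR-376a*G and 1358, 697 and 710.0 with control, and fell, at -2.27 (adjusted p = 8.8e-04). Control replicate 1 was its brightest control array. KDELR3, a receptor that returns escaped ER proteins, fell, at -2.07, LMAN1, a cargo receptor for ER exit, at -1.80 and TMX1, a membrane thioredoxin-like isomerase, at -1.14. TXNDC11 was the 1 gene that rose (0.41, adjusted p = 0.0415).

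Genes of ER entry and N-glycosylation gave 10 of 37 called, or 27% beside 33.4% of all tested genes. Of the 37, 6 were called higher and 4 lower, with a median of 0.05. SRPRB, of the receptor for the signal recognition particle, rose by 0.78, SEC61A2 by 0.94, the glycosyltransferase ALG5 by 0.46 and SRP68 by 0.36. SSR2 and TRAM2, which assist translocation, fell, at -0.91 and -0.70, and OSTC and OST4, subunits of the oligosaccharyltransferase, at -0.64 and -0.43.

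Further genes of stress signalling gave 14 of 29 called, or 48.3%, with 8 higher and 6 lower and a median of 0.20. Of all tested genes 33.4% were called, 18% higher and 15.4% lower, with a median of 0.12. DDIT3, which encodes the stress factor CHOP, had 422, 439.8 and 445 with miR-376a*G and 180.0, 155 and 160.0 with control, and rose by 1.3998 (adjusted p = 6.7e-05). CEBPG, a partner of ATF4, rose by 1.67 (5.6e-05), the apoptosis effector BAK1 by 1.02 and CHAC1, a glutathione-degrading enzyme with dim signal (79.1, 59.9983 and 97.1 with miR-376a*G and 29.5, 25.8 and 20.6 with control), by 1.59. MBTPS2, the site-2 protease that releases ATF6, had 295, 292 and 293 with miR-376a*G and 777, 474 and 483 with control, and fell, at -0.94 (adjusted p = 0.00913). CREB3L1, a relative of ATF6, the amino acid sensor kinase EIF2AK4 and the apoptosis effector BAX fell, at -1.05, -0.78 and -0.77. Splits of these 4 lists moved with scaling, as did those of all 12587 tested genes. With centred arrays they were 2 and 10, 0 and 14, 1 and 8, and 4 and 8 higher and lower, beside 1068 and 2595 of all genes. With hybridisation controls they were 16 and 5, 10 and 5, 21 and 1, and 17 and 1, beside 5592 and 946. Without both arrays that stood apart the lists gave 10 and 15, 6 and 15, 11 and 7, and 14 and 10, beside 31.2% and 25% of all tested genes. Set against miR-376a*G, miR-376a*A gave for the 4 lists, of 39, 39, 37 and 29 tested genes, 9 and 7, 13 and 1, 8 and 4, and 6 and 10 higher and lower, beside 16.4% and 21.8% of all tested genes. Between miR-376a*A and control 0 genes of the 4 lists were called as labelled, and 6 and 8, 20 and 5, 14 and 6, and 6 and 3 higher and lower without both arrays, beside 19% and 22.9% of all tested genes.

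**Figure D5:**
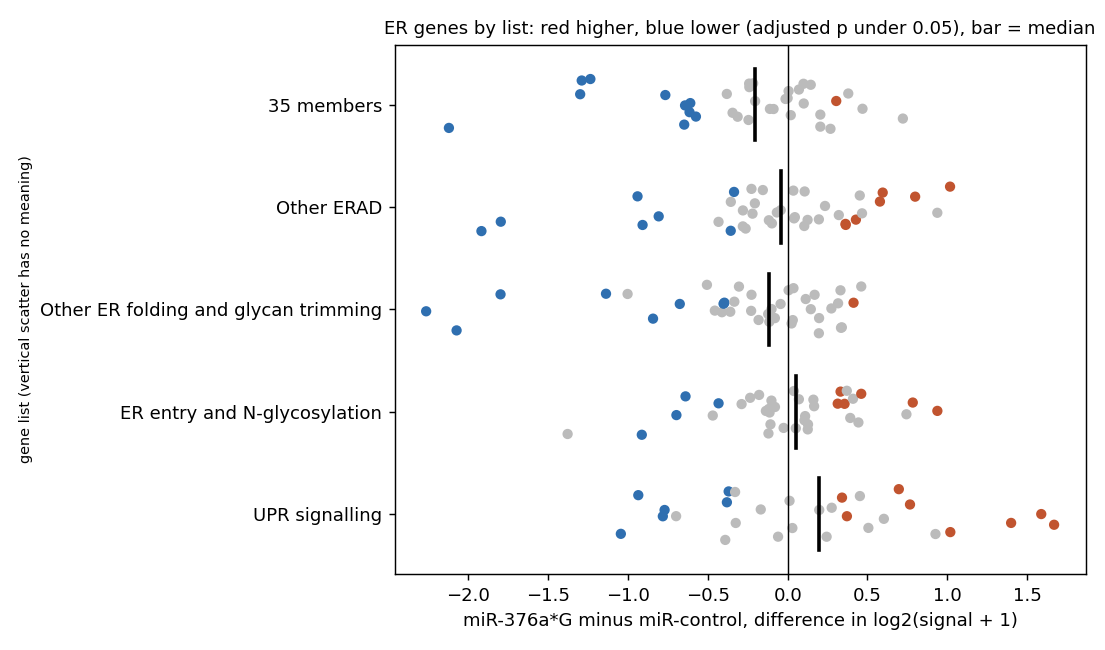
Differences in log2(signal + 1) between miR-376a*G and control for the 35 genes and for the 4 further lists of ER genes, 1 point per gene, with the median as a bar and genes past an adjusted p of 0.05 in colour. The medians run from -0.20 for the 35 genes to 0.20 for the stress signalling list.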

How the data were processed

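RNA was measured on 9 Affymetrix arrays, 3 per group, each placed by its label. The software, per the submitters' processing notes, was GCOS 1.4.0.036. How probes were summarised is not given in the sources used here. Per array the authors deposited 54675 linear intensity values, 1 for each probe set. They were already scaled, since trimming 2% from both ends left a mean of 100 on all arrays. Arrays hold no counts, so their number limits precision. Probe sets were named from GEO's platform annotation and RefSeq's gene table (41097 with 1 gene). Values were analysed as log2(signal + 1), a scale that understates changes of dim genes. Genes above their array's median on at least 3 arrays were tested with limma 3.58.1 (R 4.3.3): 9 arrays, 3 group means, 6 residual degrees of freedom, eBayes with an intensity trend, two-sided, Benjamini-Hochberg over 12587 genes. All adjusted p-values in the text are from limma. Values are given for every gene of the list and per array for those called in a comparison and for HSPA5, XBP1 and ERN1 by rule. Per-array values of other genes, and the probe sets described beside the brightest, were chosen after their values were seen. Of each further list, the up to 4 called genes per direction with the largest miR-376a*G difference are named. The 35 genes, the lists and the alternatives were chosen with earlier results of these data known. On data simulated with these arrays' spread, 60% of genes changed 2-fold and 82% of those changed 4-fold between miR-376a*G and control were recovered. At each fold size 50 of 12587 genes were changed, whereas 4205 were called in the data. The simulated spread included the 2 arrays that stood apart. With settings unlike the data, these rates do not give the recovery of the tests above. An exact permutation of 3 arrays against 3 cannot go below p = 0.1.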

Additional observations from a re-analysis of the deposited data

How the results depend on the processing

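Without both arrays that stood apart, 17 of the 35 genes were called between miR-376a*A and control and 22 between miR-376a*G and control. With array weights in limma, which put 0.154 on miR-376a*A replicate 1 and 0.165 on control replicate 1, the numbers were 22 and 25, against 0 and 11 as reported. Leaving out 1 array at a time gave 0 to 0 genes for miR-376a*A against control, 9 to 14 for miR-376a*G against control and 10 to 17 for the 2 miR-376a* forms (15 as reported). Over all tested genes the calls were 0, 4205 and 4804 as reported, 5268, 7066 and 7508 without both arrays and 5513, 7865 and 7866 with array weights. Scaling to the hybridisation controls gave 0, 6538 and 8882, and changed the share of higher calls to 85.5% between miR-376a*G and control and to 7.62% for miR-376a*A over miR-376a*G (53.9% and 43% as reported; 29.2% and 70.1% with centred arrays). Under that scaling, counting genes called on at least one side, PDIA6, DERL1 and SEC61B turned to 0.39, 0.29 and 0.40 between miR-376a*G and control. For miR-376a*A over miR-376a*G it turned HSPA5 to -0.31, HSP90B1 to -0.50, CRELD2 to -0.30, PDIA6 to -0.42, DNAJC10 to -0.30, EDEM1 to -0.063, DERL1 to -0.49, DERL2 to -0.14, RNF139 to -0.39, SEC61B to -0.60 and VCP to -0.37; this scaling adds the same amount to every gene of an array. Uncalled on both sides, HSPA5, CALR, SDF2L1, CRELD2, DNAJC3, DNAJC10, EDEM1, VCP and NPLOC4 also changed sign between miR-376a*G and control, as did CANX, PDIA4, ERN1, EIF2AK3 and NPLOC4 for miR-376a*A over miR-376a*G. Between miR-376a*A and control, where no gene was called, HERPUD1, PDIA3, HSPA5 and others changed sign too. With the mean of all probe sets of a gene, DNAJC10 turned to -0.100. The numbers of genes called under a pseudocount of 16, no filter, quantile normalization, centring, the mean of all probe sets, only the 2 groups compared and probe sets tested one by one stayed within 1.5 times those reported. No pairing by replicate number was seen: deviations of same-numbered arrays from their group means correlated at -0.881 to 0.0457, and 0 of 9 arrays correlated best with their own number. The 2 arrays that stood apart carry much of the deviations in miR-376a*A and control, so this cannot exclude a pairing. With the replicate block 0, 9 and 11 genes were called, as against 0, 11 and 15. Dim genes such as DERL3, near the array medians, have wide intervals.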
